A study of Mus musculus with 6 samples.

Results

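The genes examined were 8 genes of V(D)J recombination and of the pre-T-cell receptor (pre-TCR), namely Rag1, Rag2, Dntt, Ptcra, Xrcc6, Xrcc5, Dclre1c and Lig4. They were taken by gene name from a table of 54532 mouse genes, and each name matched 1 gene. The set was chosen with the values of these same libraries in view, so the levels of the 8 genes are given as a description, without a test. RNA came from bone marrow (BM) cells of C57BL/6 mice at post-transplantation day 100, in 3 libraries labelled Phf6 WT (WT 1 to WT 3) and 3 labelled Phf6 KO (KO 1 to KO 3). All 6 carried JAK3 M511I, an activating mutant of a Janus kinase that was introduced with a retrovirus carrying GFP and gives T-cell acute lymphoblastic leukemia (T-ALL) in mice. By the methods of the study, KO donors were Vav1-Cre;Phf6 fl/y males, in which Cre acts throughout hematopoietic cells, and WT donors were Phf6 fl/y males without Cre. Lineage-negative donor BM cells were transduced and transplanted into irradiated males, so each library can hold host cells beside donor cells. Whether GFP+ cells were sorted for RNA, and whether each library was 1 mouse, is not stated in the sources used here, so p-values measure the spread between these libraries only. The genotype labels read Phf6, Phf7 and Phf8 in turn within each group, whereas the design text names Phf6 alone, and all were read as Phf6.

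V(D)J recombination joins the gene segments of T-cell receptor and immunoglobulin genes in developing lymphocytes. RAG1 and RAG2 together form the recombinase that cuts the DNA, Artemis (Dclre1c) opens the hairpin ends, terminal transferase (Dntt) adds bases without a template, and the Ku heterodimer (Xrcc6, also called Ku70, and Xrcc5, Ku80) with DNA ligase IV (Lig4) joins the ends by non-homologous end joining (NHEJ). Pre-TCR alpha (Ptcra) pairs with a newly made TCR beta chain in thymocytes, and signalling by this pre-TCR drives the step from the double-negative (DN) to the double-positive (DP) stage. Rag1, Rag2 and Dntt are used by early B cells as well as by thymocytes, whereas Ptcra is a T-lineage gene, and the NHEJ genes are used in most cell types.

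Promoter sequence was read for the members because it is a property that the choice of genes did not use. The 250 bases before the RefSeq start (GRCm38.p6) are printed for the 3 genes of cutting and base addition, for Ptcra and for Xrcc5, the one member whose groups overlapped. They lie at chr2:101649533-101649782 (minus strand), chr2:101624462-101624711 (plus strand), chr19:41029025-41029274 (plus strand), chr17:46763713-46763962 (minus strand) and chr1:72307171-72307420 (plus strand). No annotated exon (GENCODE M21) lies in these windows. Each is written 5′ to 3′ on the strand of its gene, and capitals mark the E-box CANNTG, the letters bound by E proteins such as those of Tcf3 and Tcf12.
Rag1: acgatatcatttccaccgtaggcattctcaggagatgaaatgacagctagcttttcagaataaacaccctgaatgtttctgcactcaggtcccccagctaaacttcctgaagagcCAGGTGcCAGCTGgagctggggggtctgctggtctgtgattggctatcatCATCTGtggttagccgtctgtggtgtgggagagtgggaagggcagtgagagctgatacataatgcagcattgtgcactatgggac
Rag2: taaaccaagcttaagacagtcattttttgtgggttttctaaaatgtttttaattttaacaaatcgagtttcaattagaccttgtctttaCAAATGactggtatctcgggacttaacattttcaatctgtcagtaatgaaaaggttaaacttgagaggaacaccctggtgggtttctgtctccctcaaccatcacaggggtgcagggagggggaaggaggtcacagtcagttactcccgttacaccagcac
Dntt: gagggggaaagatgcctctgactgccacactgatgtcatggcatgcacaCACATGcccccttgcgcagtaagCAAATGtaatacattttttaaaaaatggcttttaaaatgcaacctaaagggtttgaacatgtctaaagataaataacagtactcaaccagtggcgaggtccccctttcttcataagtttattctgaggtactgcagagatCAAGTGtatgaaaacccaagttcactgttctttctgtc
Ptcra: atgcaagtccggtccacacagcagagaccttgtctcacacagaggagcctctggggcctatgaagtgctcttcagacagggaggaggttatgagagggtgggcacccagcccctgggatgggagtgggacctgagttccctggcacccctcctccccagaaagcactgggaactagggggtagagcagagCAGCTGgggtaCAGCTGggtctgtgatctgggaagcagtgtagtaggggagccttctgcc
Xrcc5: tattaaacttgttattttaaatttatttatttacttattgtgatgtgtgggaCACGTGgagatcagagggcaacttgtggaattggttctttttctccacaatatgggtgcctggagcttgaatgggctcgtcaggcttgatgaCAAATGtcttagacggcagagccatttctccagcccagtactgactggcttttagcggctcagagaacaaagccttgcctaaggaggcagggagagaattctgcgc
The E-box occurred at 3 places in Rag1, 1 in Rag2, 3 in Dntt, 2 in Ptcra and 2 in Xrcc5, and 66.2% of the 32851 RefSeq promoter windows of this length hold at least 1. TGTGGT, the letters known for Runx factors, was found in Rag1 alone among the 8 windows, at 2 places, and 14.0% of all windows hold it. The first of these overlaps the third E-box printed in capitals. The letters TGGGAA, known for the Notch partner Rbpj, were found at 1 place in Rag1 and at 2 places in Ptcra, beside 21.6% of all windows. AACNG, known for Myb, was found in Rag2, Dntt, Xrcc6, Dclre1c and Lig4, beside 74.2% of all windows, and TATAAA was in none of the 8 windows and in 12.4% of all. All motifs were searched on both strands, and a match describes letters in a window only. CG dinucleotides numbered 3 in Rag1, 3 in Rag2, 2 in Dntt, 1 in Ptcra, 5 in Xrcc5 and 8 in Dclre1c, against 25 in Xrcc6, 27 in Lig4 and a median of 6 over all windows. The E-box was thus the motif held by all 8 windows, with 1 in Xrcc6, 2 in Dclre1c and 1 in Lig4. The windows of Xrcc6 and Lig4 are not printed because 250 and 230 of their bases are annotated as exon. The RefSeq start used for Xrcc6 lies 28534 bases from the start in the deposited coordinates. For the other members this distance is 0 to 31 bases. The Xrcc6 window holds exons of Xrcc6 and of an overlapping gene, Desi1, so its counts may not describe the start of the measured gene.

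The libraries held 13015823 to 18235095 reads, recovered from FPKM (fragments scaled to gene length and to the authors' library size), and 12027 to 13096 genes at an FPKM of at least 1. The FPKM of Phf6, the targeted gene, was 7.47, 3.67 and 8.02 in WT and 6.73, 5.50 and 5.11 in KO (triplets of values follow the library numbers throughout), with a difference in log2(FPKM + 1) of -0.073 (limma, adjusted p = 0.893). The groups overlapped through WT 2, and without it every KO library lay below both WT libraries, with a difference of -0.37 (limma, adjusted p = 0.0992). A value over the whole gene includes sequence outside the deleted exons, so the genotype of a library rests on its label, and so does every direction given here. WT 2 stood apart from the other libraries, with 17.1% of its reads in short genes (under 1 kilobase) (3.11% to 5.01% in the other 5), 21.6% in ribosomal protein genes (5.15% to 6.94%) and a correlation over genes of 0.779 and 0.746 with WT 1 and WT 3, which correlated with each other at 0.948. The reads recovered in WT 2 were 1.55 times the library size that its FPKM implies, beside 0.827 to 0.994 in the other 5. Its FPKM values are thus high for its share of reads, and they summed to 897352 beside 244936 to 329893. Results that rest on WT 2 are therefore given with and without it. Over all genes tested, limma called 3539, of which 49.6% were higher in KO, against 67.8% after rescaling each library to one total (TPM), and 6967 genes without WT 2, and voom on the recovered reads called 3359.

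Of the 8 genes, 7 had levels in all 3 KO libraries above those in all 3 WT libraries. Over all 13393 genes that passed the filter, 26.2% showed the same separation with KO higher, and 49.1% in either direction. Because the genes were picked from this contrast, nothing is read from their count. In bulk RNA, fewer cells of a type and less RNA per cell cannot be told apart. The median difference in log2(FPKM + 1), KO minus WT, was 4.08 over the members and 0.086 over all genes tested. Setting Ptcra to the lowest fold that its reads allow could not move this median, because Ptcra lies above it either way. All 8 genes passed the filter (3 or more of the 6 libraries at an FPKM of 1 or above). Ptcra passed through the KO libraries alone, and Rag1, Rag2, Dntt and Lig4 passed through the KO libraries with WT 2 as the only WT library at 1 or more.

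**Figure D1:**
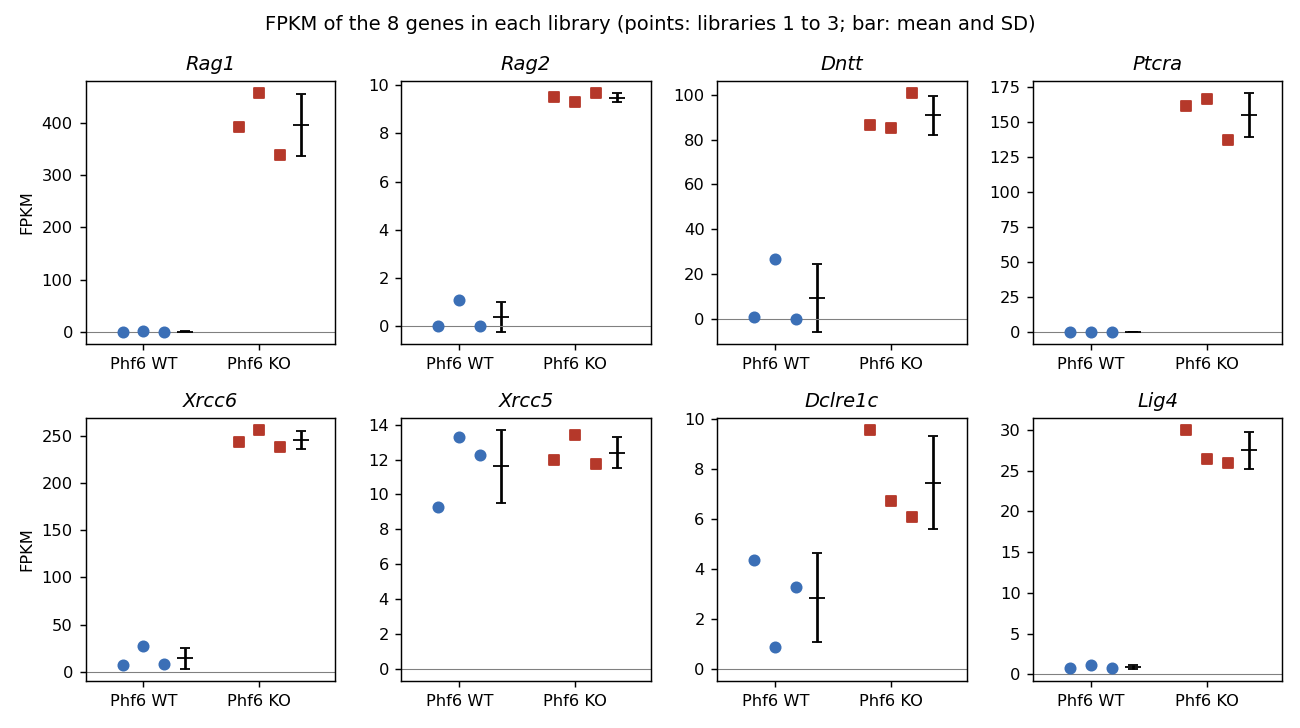
FPKM (vertical axes, linear, each gene on its own scale) of the 8 genes in the 3 Phf6 WT (circles) and 3 Phf6 KO (squares) libraries, with the mean and SD of each group as a bar. The groups are apart for 7 genes, overlap for Xrcc5, and WT 2 is the highest WT library for Dntt (26.6) and Xrcc6 (27.3) and the lowest for Dclre1c (0.886).

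The recombinase genes were at or near 0 in WT and expressed in KO. Rag1 (ENSMUSG00000061311, chromosome 2, 101638282 to 101649501, minus strand, GRCm38) read 0.0686, 1.71 and 0 FPKM across WT, from 7, 133 and 0 reads, and 392, 457 and 338 in KO, from 48299, 47495 and 35958 reads. The 0 reads in WT 3 allow an FPKM of up to 0.0293 (3 reads). Group means were 0.594 ± 0.969 for WT and 396 ± 59.3 for KO (± SD, n = 3 each), a ratio of 667 and a difference in log2(FPKM + 1) of 8.11. Of the WT reads most were in WT 2, and without it the ratio was 11529, against the 7 reads of WT 1, and the difference 8.57. In the KO libraries Rag1 stood above 99.5% to 99.6% of the genes tested.

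Rag2 (ENSMUSG00000032864, chromosome 2, 101624718 to 101632529, plus strand), which lies beside Rag1 and is transcribed from the other strand, was listed at 0 in WT 1 and WT 3 and had an FPKM of 1.09 in WT 2, from 44 reads. In KO 1, KO 2 and KO 3 it had an FPKM of 9.52, 9.29 and 9.67. Group means were 0.364 ± 0.631 for WT and 9.49 ± 0.189 for KO (± SD, n = 3 each), a ratio of 26.1 that rests on the 44 reads of WT 2, and a log2 difference of 3.04. Without WT 2 no WT read remained, and the difference was 3.39. The 2 genes therefore differed in level within the KO libraries, although both proteins are needed for the recombinase. The ratio of Rag1 to Rag2, per length, was 41.2, 49.1 and 35.0 in KO and 1.57 in WT 2, the only WT library with Rag2 reads. In KO, Rag2 stood above 60.7% to 61.2% of the genes tested.

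Dntt (ENSMUSG00000025014, chromosome 19, 41029275 to 41059523, plus strand) stood at 86.7, 85.0 and 101 FPKM in KO. The WT libraries differed widely for this gene, at 0.731, 26.6 and 0.121 FPKM, from 24, 666 and 4 reads. Group means were 9.16 ± 15.1 for WT and 90.8 ± 8.68 for KO (± SD, n = 3 each), a ratio of 9.92 and a log2 difference of 4.60. Without WT 2 the ratio was 213 and the difference 6.04. The order of Dntt and Rag1 was opposite in the 2 groups, with Dntt over Rag1 at 10.6 in WT 1 and 15.5 in WT 2 and at 0.221, 0.186 and 0.298 in KO.

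Ptcra (ENSMUSG00000036858, chromosome 17, 46755663 to 46763712, minus strand) had 0 reads in each of the 3 WT libraries. In KO 1, KO 2 and KO 3 it had an FPKM of 161, 167 and 137, from 3857, 3364 and 2838 reads, with a mean of 155 ± 15.6 (SD, n = 3). Set against 3 reads in each WT library, a mean FPKM of 0.167, this was at least 928-fold higher. Ptcra was the only member without reads in WT 2, the WT library in which Rag1, Rag2 and Dntt were all detected.

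The Ku subunits, which work as a dimer, did not share a pattern. Xrcc6 (ENSMUSG00000022471, chromosome 15, 81987835 to 82040085, plus strand) stood at 7.21, 27.3 and 8.48 FPKM in WT and at 244, 256 and 238 FPKM in KO. Group means were 14.3 ± 11.3 for WT and 246 ± 9.63 for KO (± SD, n = 3 each), a ratio of 17.1 and a log2 difference of 4.24. Without WT 2 the ratio was 31.4 and the difference 4.81. Xrcc5 (ENSMUSG00000026187, chromosome 1, 72307421 to 72394952, plus strand) stood at 9.26, 13.3 and 12.2 FPKM in WT and at 12.0, 13.4 and 11.8 FPKM in KO, in the same order of libraries. Its groups overlapped, at 11.6 ± 2.11 against 12.4 ± 0.888 (SD, n = 3 each), and its log2 difference of 0.098 became -0.044 without WT 1. Xrcc6 over Xrcc5, per length, was 0.779, 2.05 and 0.692 in WT and 20.3, 19.1 and 20.2 in KO.

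The Xrcc6 locus carries an overlapping gene, so its reads were examined with those of its neighbours, a locus that was added after its values were seen. Desi1, a desumoylating enzyme gene on the opposite strand, shares 344 exon bases with Xrcc6, and use of strand in the counting is not stated, so reads of the 2 genes may be mixed. Desi1 stood at 10.7, 30.2 and 11.3 FPKM in WT and at 153, 124 and 135 FPKM in KO, and it rose by 3.06 on the log2 scale (SE 0.42, limma adjusted p = 0.00338). Pmm1 had a difference of 1.85 (limma adjusted p = 0.0687) and Snu13 of 0.83 (limma adjusted p = 0.102), and 1700029P11Rik did not pass the filter. The ratio of Xrcc6 to Desi1 was 0.673, 0.905 and 0.751 in WT and 1.60, 2.07 and 1.76 in KO, so the 2 genes did not differ by the same factor. What share of the Xrcc6 value comes from Desi1 was not tested.

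Dclre1c (ENSMUSG00000026648, chromosome 2, 3424131 to 3464130, plus strand) was the member with the second smallest difference. It stood at 4.36, 0.886 and 3.29 FPKM in WT and at 9.58, 6.72 and 6.07 FPKM in KO. Group means were 2.85 ± 1.78 for WT and 7.45 ± 1.87 for KO (± SD, n = 3 each), a ratio of 2.62 and a log2 difference of 1.24. WT 2, the highest WT library for the other 6 members with WT reads, was the lowest here, and without it the ratio was 1.95 and the difference 0.80. Suv39h2, on the opposite strand, shares 357 exon bases with Dclre1c and had an FPKM of 1.10 to 1.56 in WT and 2.41 to 2.92 in KO.

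Lig4 (ENSMUSG00000049717, chromosome 8, 9969049 to 9977686, minus strand) stood at 0.760, 1.16 and 0.744 FPKM in WT and at 30.0, 26.5 and 26.0 FPKM in KO. Group means were 0.888 ± 0.236 for WT and 27.5 ± 2.22 for KO (± SD, n = 3 each), a ratio of 30.9 and a log2 difference of 3.92. The WT libraries lay close together for this gene, WT 2 included. Lig4 over Xrcc5, per length, was 0.0821, 0.0872 and 0.0608 in WT and 2.51, 1.97 and 2.21 in KO.

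In KO the members fell in the order Rag1, Xrcc6, Ptcra, Dntt, Lig4, Xrcc5, Rag2 and Dclre1c by mean FPKM, and no library of one gene overlapped with a library of its neighbour in this order except for Rag2 and Dclre1c, at 9.29 to 9.67 and 6.07 to 9.58. In WT the order was Xrcc6, Xrcc5, Dntt, Dclre1c, Lig4, Rag1, Rag2 and Ptcra, and the ranges of all neighbours in it overlapped, those of Rag2 and Ptcra at 0. The spread within KO was small for Rag2, Xrcc6 and Xrcc5, with a coefficient of variation of 1.99%, 3.92% and 7.17%, and largest for Dclre1c at 25.1%. Under the other scalings, filters and pseudocounts and with each library left out, the difference stayed between 7.85 and 10.3 for Rag1, 2.86 and 5.39 for Rag2, 3.73 and 6.13 for Dntt, 7.23 and 10.6 for Ptcra, 3.91 and 5.16 for Xrcc6, 3.86 and 5.22 for Lig4, 0.80 and 2.12 for Dclre1c and -0.044 and 0.92 for Xrcc5. Rescaling to TPM moved the median of all genes tested from 0.086 to 0.857, so the 0.92 of Xrcc5 under TPM is close to that shift.

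**Figure D2:**
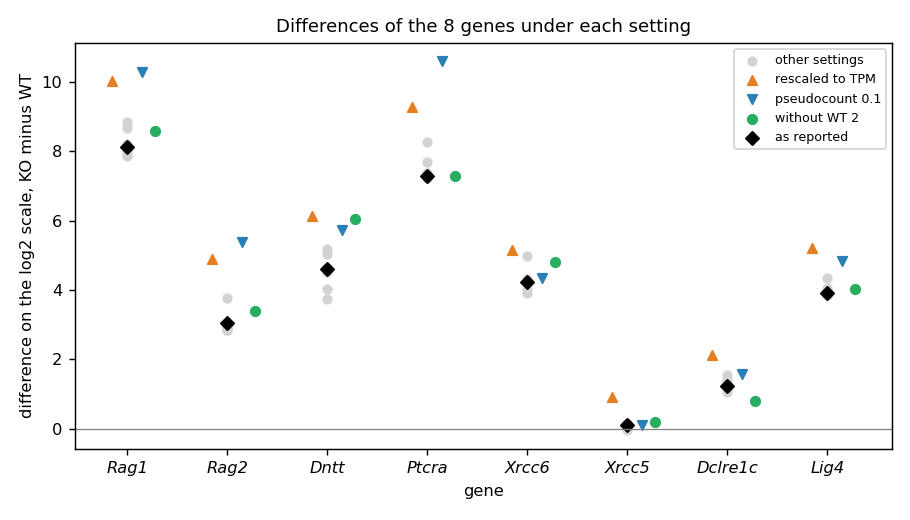
Difference in log2 level, KO minus WT (vertical axis), of each of the 8 genes as reported (diamonds), after rescaling to TPM (upward triangles), with a pseudocount of 0.1 (downward triangles), without WT 2 (circles right of centre) and under the other settings (grey circles). Xrcc5 is the only gene with a value below 0, at -0.044, and Rag1 and Ptcra reach 10.3 and 10.6 with a pseudocount of 0.1.

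The genes beside Rag1 and Rag2, Dntt and Ptcra were examined to see whether whole regions differed. Of 12 protein-coding neighbours, 8 passed the filter and 1 was called, where 26.4% of all genes tested were called in either direction (limma, adjusted p under 0.05). That gene was B230118H07Rik, which overlaps both Rag genes and shares 80 exon bases with Rag1 and 208 with Rag2. It stood at 0.725, 2.22 and 0.135 FPKM in WT and at 11.6, 24.0 and 13.1 FPKM in KO, and rose by 3.15 on the log2 scale (SE 0.47, limma adjusted p = 0.00428). Because of the shared bases its value and those of Rag1 and Rag2 may hold some of the same reads. Traf6, a signalling adaptor gene next to Rag1, had a difference of 0.76 (adjusted p = 0.116, limma), and Blnk, a B-cell adaptor gene before Dntt, of -0.58 (adjusted p = 0.702, limma) with an FPKM of 17.1 in WT 2 and of 0.411 and 0.700 in WT 1 and WT 3. Zfp518a, Cnpy3, Gnmt, 2310039H08Rik and Rpl7l1 were not called, with differences from -0.45 to 1.19. Opalin and Tll2, on the other side of Dntt, had an FPKM of at most 0.0346 in every library, beside 85.0 to 101 for Dntt in KO. Leaving out WT 2 raised the number of neighbours called from 1 to 5, and that of all 13393 genes tested from 3539 to 6967. The rise is therefore not read as a result about these regions.

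Rag1, Rag2 and Dntt mark early B cells as well as thymocytes, so the marker genes of both lineages were read beside them. All gene lists used from here on were chosen with earlier results of these data known. Their counts are a description and not independent support. WT 2 was the only library with the pre-B genes. Vpreb1 and Igll1, which encode the surrogate light chain, had an FPKM of 48.4 and 41.0 there, and at most 0.224 and 0.115 in any other library. Pax5, the B-lineage commitment factor, had 51.0 in WT 2 and at most 0.549 elsewhere, and Vpreb2 had 19.3 in WT 2 and was listed at 0 in the other 5 libraries. The summed FPKM of the 16 B-lineage markers was 714, 2858 and 1327 in WT and 19.6 to 82.5 in KO, with Vpreb2 and Fcmr at 0 in all 3 KO libraries. The Rag1, Rag2 and Dntt reads of WT 2 thus stood in the one library with pre-B genes and without Ptcra, and those of KO in libraries with Ptcra, where Ighm, at 68.1, 32.1 and 14.7 FPKM, made up most of the B-lineage sum. Over the 9 B-lineage genes tested, 2 fell in KO, where 13.3% of all genes tested fell, and 0 rose, also at an unadjusted p under 0.05 and by voom. At that unadjusted p, 4 fell. Those called were Ighm at -5.03 (SE 0.61, limma adjusted p = 0.00209) and Cd22 at -2.80 (SE 0.59, limma adjusted p = 0.0154). Without WT 2, 6 fell and 1 rose, where 3383 of all 13393 genes tested fell and 3584 rose.

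Genes of the DN3 to DP thymocyte stages were higher in KO. Because this list and that of mature T cells were chosen with earlier results known, their counts are a description. Of the 18 in the list, 14 rose and 0 fell (limma, adjusted p under 0.05), where 13.1% of all genes tested rose, and their median difference was 3.72 beside 0.086 for all genes. At an unadjusted p under 0.05, 1 fell, and by voom 1 fell, Cd8b1. Il2ra, the CD25 chain of DN2 and DN3 cells, had an FPKM of 0.545 to 2.16 in WT and 220 to 245 in KO, a rise of 6.71 (SE 0.31, limma adjusted p = 0.000233). Notch3 had 0.0321 to 0.116 in WT and 109 to 162 in KO, a rise of 6.91 (SE 0.25, limma adjusted p = 0.000223). Arpp21 rose by 4.30 (SE 0.22, limma adjusted p = 0.000233), and Aqp11, a channel gene, by 3.24 (SE 0.20, limma adjusted p = 0.000271). Cd8b1 had a difference of -1.64 (limma adjusted p = 0.0512) and Cd8a of 0.72 (limma adjusted p = 0.251), and neither gene of the CD8 dimer was called with all libraries. Without WT 2, Cd8b1 fell by 1.15 (limma adjusted p = 0.00189), where 3383 of all 13393 genes tested fell. Cd8a was again not called, at 0.40 (limma adjusted p = 0.163).

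Markers of mature T cells moved the other way. Of 12, 10 fell and 1 rose in KO, where 13.3% of all genes tested fell, with a median of -4.31. Klf2, a factor of resting T cells, changed by -6.41 (SE 0.45, limma adjusted p = 0.00034), Ccr7, the lymph node homing receptor, by -6.32 (SE 0.50, limma adjusted p = 0.000499), and S1pr1, the receptor for leaving the thymus, by -5.31 (SE 0.44, limma adjusted p = 0.000562). Trac, the constant region of TCR alpha, which replaces pre-TCR alpha in mature cells, stood at 196, 292 and 226 FPKM in WT and at 41.8, 15.8 and 7.04 FPKM in KO, a fall of 3.72 on the log2 scale (SE 0.61, limma adjusted p = 0.00596). Itgae rose by 2.07 (SE 0.47, limma adjusted p = 0.0202), a call lost without WT 1 (0 rose) and without KO 1 (0 rose). Ptcra and Trac thus stood in opposite order in the groups, with Ptcra at 0 reads in WT and, per length, 3.86, 10.6 and 19.5 times as high as Trac in KO.

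**Figure D3:**
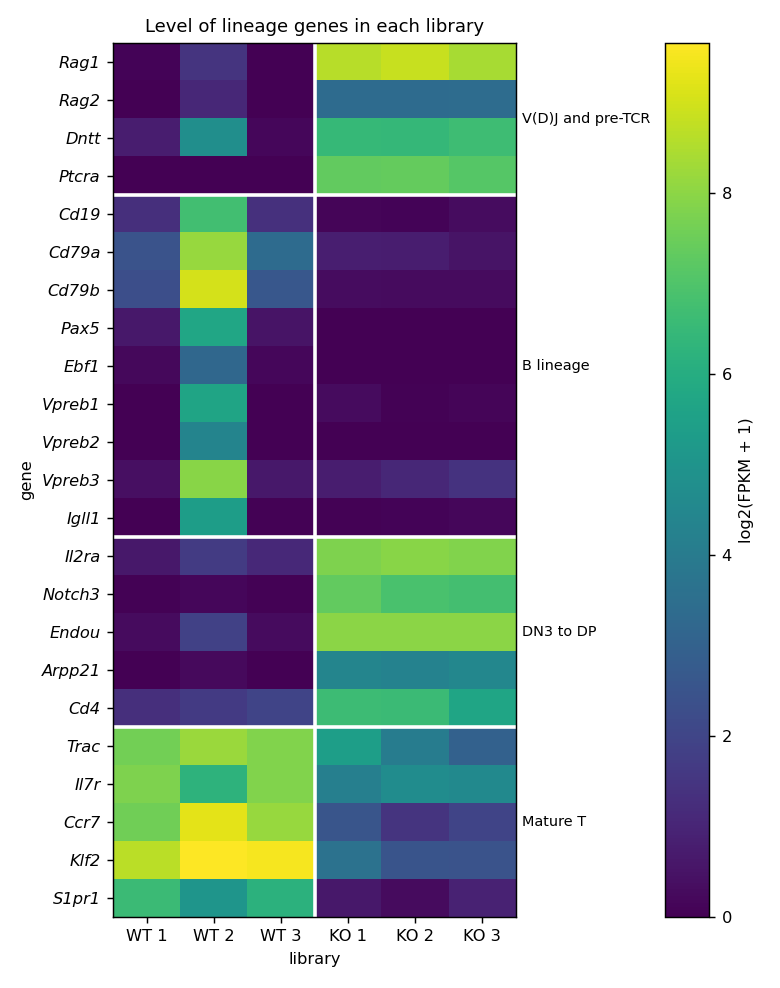
Level as log2(FPKM + 1), by colour, of 4 members and of genes of the B lineage, the DN3 to DP stages and mature T cells (rows) in the 6 libraries (columns, WT left of the white line). WT 2 alone shows pre-B genes such as Vpreb1 at an FPKM of 48.4, while Rag1, Ptcra and Il2ra are bright in all 3 KO libraries.

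Marker genes of other cell types that BM can hold also differed between the groups. Over all genes tested, 13.3% fell and 13.1% rose (limma, adjusted p under 0.05), and the counts here stand beside these shares. Neutrophil markers had a summed FPKM of 34205, 95737 and 6943 in WT and of 94.6, 273 and 293 in KO, and 14 of 14 fell and 0 rose, also at an unadjusted p under 0.05 and by voom. Of the monocyte and macrophage markers 5 of 7 tested fell and 0 rose, also at an unadjusted p under 0.05 and by voom, with sums of 602 to 5081 in WT and 16.2 to 29.7 in KO. Of the NK markers 5 of 6 tested fell and 1 rose, and whether NK or other cytotoxic cells carried these genes was not tested. Erythroid markers summed to 68107 in WT 2, and to 138 and 532 in WT 1 and WT 3 and 17.0 to 127 in KO, and of the 8 tested 0 were called, 4 having an unadjusted p under 0.05 and 0 being called by voom. Without WT 1, and without WT 2, 3 of these fell, and without WT 2 1 rose, Epor. Over all 13393 genes tested, 1383 fell without WT 1 and 3383 without WT 2, where 3584 rose. The part of cell composition in the differences of the 8 members was not tested.

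Genes that work with the members were counted in lists, also chosen with earlier results of these data known. Most other NHEJ and end-processing genes did not pass the test. Of 21, all tested, 0 rose and 3 fell, with a median of 0.16, and the share that fell was near the 13.3% of all genes tested. At an unadjusted p under 0.05, 2 were higher, and by voom 0 rose. Among those that fell were Parp3, at -2.14 (SE 0.25, limma adjusted p = 0.0019), and Poll, a gap-filling polymerase, at -2.48 (SE 0.44, limma adjusted p = 0.00792). Xrcc4, the obligate partner of ligase IV, stood at 1.72, 2.20 and 1.81 FPKM in WT and at 2.13, 2.32 and 2.29 FPKM in KO, a difference of 0.16 (limma adjusted p = 0.599), beside 3.92 for Lig4. Prkdc, the kinase that Ku recruits and that activates Artemis, had a difference of 0.45 (limma adjusted p = 0.443). Without WT 2, 4 rose and 5 fell, where 3584 of all 13393 genes tested rose and 3383 fell.

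Of 9 genes for protein partners of the RAG proteins, 4 rose, where 13.1% of all genes tested rose, and 0 fell, with a median of 1.18. Hmgb1, a DNA-bending cofactor of RAG cutting, rose by 1.18 (SE 0.23, limma adjusted p = 0.0115), with an FPKM of 18.5 to 23.3 in WT and 41.8 to 51.4 in KO. Skp2 and Cdk2, which act in the timed destruction of RAG2 in the cell cycle, rose by 1.37 (SE 0.26, limma adjusted p = 0.0109) and 1.62 (SE 0.32, limma adjusted p = 0.0128), and Kpna2, an importin that binds RAG1, by 1.44 (SE 0.41, limma adjusted p = 0.0449). Hmgb2, Ccna2, Ccne1, Dcaf1 and Kpna1 did not pass the test, with differences of 0.76, 1.45, -0.47, 0.45 and -0.093. No gene fell at an unadjusted p under 0.05 or by voom (0 in each). The count of 4 became 2, 0 and 1 without KO 1, KO 2 and KO 3.

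Of 23 genes for regulators of the Rag genes, 20 were tested, 4 rose and 3 fell, with a median of 0.48. Of all genes tested, 13.1% rose and 13.3% fell, so neither count is read as a result about the list. Myb rose by 3.22 (SE 0.48, limma adjusted p = 0.00423), with an FPKM of 7.25, 12.7 and 3.06 in WT and of 82.6, 81.8 and 52.9 in KO. Tcf12, which encodes the E protein HEB, rose by 3.19 (SE 0.58, limma adjusted p = 0.00922), Gfi1 by 2.43 (SE 0.36, limma adjusted p = 0.00425) and Bcl11b, the T-lineage commitment factor, by 1.48 (SE 0.33, limma adjusted p = 0.0191). Those that fell were Erg, at -1.72 (SE 0.37, limma adjusted p = 0.0175), Foxo1, known as an activator of Rag genes in B cells, at -1.24 (SE 0.30, limma adjusted p = 0.0236), and Foxp1, at -0.80 (SE 0.23, limma adjusted p = 0.0464). Genes that raise and genes that lower Rag expression are both in the list, so its count has no single direction. Without WT 2, 8 rose, where 3584 of all 13393 genes tested rose. The 3 that fell became 1, 1, 1, 0 and 0 without WT 1, WT 3, KO 1, KO 2 and KO 3.

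Of 23 genes for the pre-TCR complex and its signalling, 22 were tested, 1 rose and 5 fell, beside 13.1% and 13.3% of all genes tested, with a median of -0.37. The CD3 chains, which carry the pre-TCR to the surface, were not called, at -0.42 for Cd3d, 0.40 for Cd3e and -0.0077 for Cd3g (limma adjusted p = 0.711, 0.505 and 0.994). Egr1, an early gene of receptor signalling, fell by 3.94 (SE 0.40, limma adjusted p = 0.0011), with an FPKM of 35.8, 18.7 and 36.5 in WT and of 1.90, 0.411 and 0.845 in KO. Egr3 changed by -1.93 (SE 0.29, limma adjusted p = 0.00447), Prkcq by -1.22 (SE 0.24, limma adjusted p = 0.0117) and Cd5, whose level follows receptor signal strength, by -1.76 (SE 0.40, limma adjusted p = 0.02). Rasgrp1 fell by 2.0 (SE 0.52, limma adjusted p = 0.0334). Without WT 2, 4 rose and 9 fell, where 3584 of all 13393 genes tested rose and 3383 fell. Without KO 2 or KO 3, 2 fell.

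Cell cycle genes were read because RAG2 protein is destroyed outside G1. Of 20, 8 rose, where 13.1% of all genes tested rose, and 0 fell, with a median of 1.45, and 0 fell also at an unadjusted p under 0.05 and by voom. Bub1 rose by 1.80 (SE 0.41, limma adjusted p = 0.0211), Top2a by 2.02 (SE 0.49, limma adjusted p = 0.0251), Ccnb1 by 1.85 (SE 0.46, limma adjusted p = 0.0282) and Mcm2 by 1.25 (SE 0.31, limma adjusted p = 0.0291). The count changed with each library left out, at 3, 18 and 3 without WT 1, WT 2 and WT 3 and 0 without any one KO library. Calls over all genes tested moved the same way, from 3539 to 2620, 6967 and 3150 without WT 1, WT 2 and WT 3. They were 2071, 1934 and 2021 without KO 1, KO 2 and KO 3. At an unadjusted p under 0.05, 16 of the 20 were higher with all libraries.

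**Figure D4:**
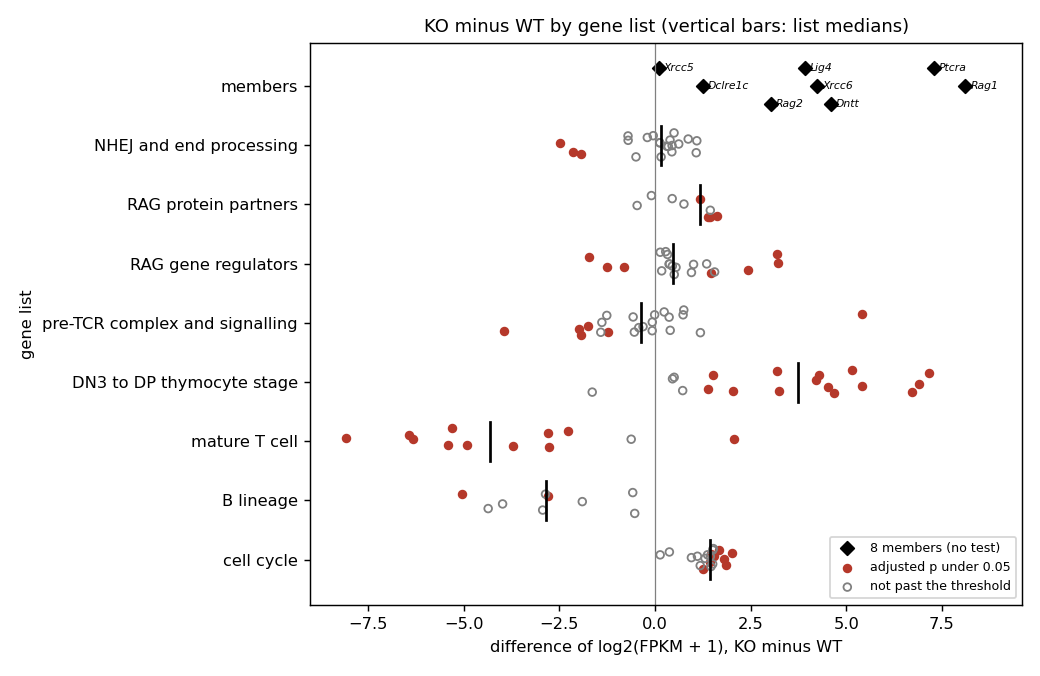
Difference in log2(FPKM + 1), KO minus WT (horizontal axis), of the 8 members (diamonds, not tested) and of the tested genes of 8 lists (rows, points spread vertically for display), with filled circles for an adjusted p under 0.05 and vertical bars at list medians. The DN3 to DP genes lie to the right (median 3.72), mature T-cell genes to the left (-4.31), and NHEJ genes about 0 (0.16) although Lig4 and Xrcc6 lie at 3.92 and 4.24.

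For each member, the tested protein-coding genes with the most similar pattern over the 6 libraries were ranked among 10380 by Pearson's r of log2(FPKM + 1), as a description in which all genes share the same libraries. Rag1 was most like Zfp422 (r = 0.999), Endou and Bzw2. Endou, a thymocyte marker of the stage list, had an FPKM of 0.212, 2.66 and 0.212 in WT and 250, 249 and 248 in KO, with WT 2 as the highest WT library, as for Rag1. Dntt was most like Cnn3, Ppp1r7 and Rpl3l, of which Cnn3 had 0.725, 6.53 and 0.255 in WT. Ptcra was most like Exoc3l4, Chrna9 and Il9r, Lig4 like Igsf23, Cbr4 and Itga9, and Dclre1c like Tpp1, Asxl1 and Mfap3. Gm45716 was among the 3 nearest to both Rag2, with Stambpl1 and Hsdl1, and Xrcc6, with Metrn and Cyb5b. Xrcc5 was most like Dennd6b, Mettl27 and Gtpbp3. Between members, r with Rag1 was 0.992 for Rag2, 0.993 for Ptcra, 0.997 for Lig4, 0.989 for Xrcc6, 0.900 for Dntt, 0.717 for Dclre1c and 0.373 for Xrcc5. Over 6 libraries, r is high for genes that are much lower in all WT than in all KO libraries. It therefore largely restates the contrast from which the members were chosen, and shared regulation was not tested.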

How the data were processed

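BM RNA was extracted with Trizol and made into libraries with a NEBNext kit, and paired-end reads were sequenced on an Illumina NovaSeq instrument. The authors deposited a table of FPKM per gene and library, with gene lengths and coordinates. The submitters' processing notes name HISAT2 2.0.5, featureCounts 1.5.0-p3 and the builds GRCm38 and mm10. Annotation release and strand use are not given in the sources used here. Multiplied by gene length, 100% of FPKM values fell on whole numbers of reads (tolerance 0.1 read), so reads per gene were recovered. Floors are 3 reads and cover counting error only.

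The members and gene lists were chosen with earlier results of these data known. The scale used was log2(FPKM + 1), on which low genes show smaller changes. The 13393 genes at an FPKM of 1 or above in 3 or more of the 6 libraries were tested with limma 3.58.1 (lmFit, eBayes with trend, two-sided, Benjamini-Hochberg over all genes, threshold 0.05) in R 4.3.3. The members themselves were not tested. The script was tested on simulated data. It called 58% of genes given a log2 change of 2 and 79% of those given 4, with 6 false calls. A gene that was not called may therefore still differ. The authors used DESeq2 on counts, whereas limma was run here on the deposited FPKM, with voom on the recovered reads as the count-based alternative. Genes named are the members, Phf6, their neighbours, the 3 most similar genes and up to 4 called genes per list and direction, with every gene of short lists. Some genes that the rule names are not reported here. Others named (Desi1, Pmm1, Snu13, Suv39h2, list genes that were not called) were chosen after their values were seen. Coordinates of 7 of 8 members were identical to GENCODE M21, and Dntt ends 2 bases earlier. Promoters came from RefSeq (GRCm38.p6), with all 8 members matched by symbol, Xrcc6 at a start 28534 bases from the deposited one. Alternatives were other pseudocounts, filters and scalings, eBayes without trend, array weights, a replicate block, voom on the recovered reads and each library left out. Other software was Python 3.11.15, pandas 2.3.3, NumPy 2.4.6 and Matplotlib 3.10.9.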

Additional observations from a re-analysis of the deposited data

How the results depend on the processing

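The 7 separated members stayed higher in KO under every scaling, filter, pseudocount and omission run, and Xrcc5 turned to -0.044 without WT 1 (0.20 without WT 2). The median difference over the 8 members was 5.11 with a pseudocount of 0.1 and 5.19 in TPM, and 3.80 to 4.41 with 1 library left out. Rag2 drops out under a mean FPKM of at least 5. Genes called numbered 1837 under that filter and 8461 with array weights, and 1934 to 6967 with 1 library left out, against 3539.

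In TPM, NHEJ counts were 1 higher and 1 lower, RAG regulators 7 higher and 1 lower, pre-TCR genes 3 higher and 2 lower, cell cycle genes 17 higher, and neighbours called 3. Array weights gave 7 NHEJ genes higher and 5 lower, 1 RAG partner lower, 9 RAG regulators higher, 5 pre-TCR genes higher and 10 lower, 19 cell cycle genes higher and 5 neighbours. Quantile normalization gave 1 NHEJ gene, 3 pre-TCR genes and 14 cell cycle genes higher. Without trend 2 pre-TCR genes were higher, a mean FPKM of at least 5 gave 2 RAG partners higher, and no filter gave 3 cell cycle genes higher. The causes were not tested.

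With 1 library left out, counts ranged from 0 to 4 (NHEJ higher), 2 to 5 (NHEJ lower), 0 to 5 (RAG partners higher), 0 to 1 (RAG partners lower), 3 to 8 (RAG regulators higher), 0 to 3 (RAG regulators lower), 1 to 4 (pre-TCR higher), 2 to 9 (pre-TCR lower), 0 to 18 (cell cycle higher) and 1 to 5 (neighbours). The high ends came without WT 2, where 3584 of all 13393 genes tested rose and 3383 fell.

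Same-numbered libraries deviated from their group means with correlations of 0.0954, 0.105 and -0.153, so the numbers were not taken to pair the samples. A replicate block gave 2676 genes called, with 2 RAG partners higher, 1 RAG regulator lower and 2 cell cycle genes higher.

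Some genes that were not called changed sign. Blnk became 0.27 in TPM, 0.70 with array weights and 0.60 without WT 2 (-1.24 without WT 1), Zfp518a -0.015 with array weights, Cnpy3 0.37 in TPM and 0.046 without WT 2 (-0.75 without WT 3), and Rpl7l1 0.71 in TPM, 0.088 after quantile normalization, 0.13 with array weights and 0.16 without WT 2 (-0.29 without WT 3). Ccne1 became 0.30 in TPM, Kpna1 0.69 in TPM, 0.14 without WT 1 and 0.065 without WT 3 (-0.49 without WT 2), and Phf6 0.69 in TPM, 0.055 without WT 1 and 0.10 without WT 3 (-0.37 without WT 2). With 3 libraries a group, genes with few reads, such as Rag2 in WT 2 (44 reads), are known only coarsely.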

Other observations

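Among the marker lists, 1 gene moved against its list besides Itgae. Gzma, a granzyme of cytotoxic cells, had an FPKM of 12.9, 50.8 and 27.9 in WT and of 587, 566 and 615 in KO, a rise of 4.42 on the log2 scale (SE 0.50, limma adjusted p = 0.00165), higher in 3 of 3 KO libraries. The other NK genes tested fell, among them Klre1 by 3.61 (SE 0.28, limma adjusted p = 0.00048) and Eomes by 4.47 (SE 0.38, limma adjusted p = 0.000613), and Prf1, the perforin gene that acts with granzymes, by 3.23 (SE 0.41, limma adjusted p = 0.00244).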
